A study of Mus musculus with 5 samples.

Results

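Coenzyme A synthesis and its recycling by vanins were followed through 9 genes in mouse liver: the pantothenate kinase genes Pank1, Pank2, Pank3 and Pank4, the pathway genes Ppcs, Ppcdc and Coasy, and the vanin genes Vnn1 and Vnn3. They were chosen by name, and each was read from the probe set that the platform annotation gave to that symbol alone, with the brightest probe set to stand for a gene that has several. Each of the 9 had exactly 1 such probe set, out of 19938 genes with at least 1. The data are 5 Affymetrix whole-transcript arrays of total liver RNA, 1 array for each of 5 male wild-type C57BL/6N mice aged 5 to 6 months. All 5 mice belonged to a single group. At 10 to 16 weeks of age they had been given 5 daily doses of streptozotocin (65 mg/kg), which destroys insulin-producing beta cells. Chow with bezafibrate, a fibrate drug and agonist of the peroxisome proliferator-activated receptors (PPARs), followed 2 weeks later and was fed for 8 weeks. The labels name 0.25% and 0.5% bezafibrate without saying which mouse ate which, so dose and mouse cannot be told apart. No untreated or singly treated liver was analysed here, and the values give the level of each gene in livers exposed to both compounds and its spread between mice, with no effect of either compound.

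Coenzyme A carries acyl groups through fatty acid oxidation, ketone production and lipid synthesis, and the liver raises its pool on fasting and in response to fibrates. Synthesis starts from pantothenate, which a pantothenate kinase phosphorylates in the step that sets the rate. Cysteine is then attached and decarboxylated, and a bifunctional synthase completes the cofactor. Vanins work in the opposite direction, splitting pantetheine into pantothenate, which can be used again, and cysteamine. Pank1 and Vnn1 are known PPARA target genes in liver.

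Values are log2 signals after RMA (robust multi-array average), on which 1 unit stands for a 2-fold change of signal. The brightness below which a gene was not counted as detected, here called the floor, was set at the 95th percentile of 1212 probe sets for smell and pheromone receptors. It lay between 5.58 and 6.07 on the 5 arrays. Array medians lay between 6.22 and 6.31. Hepatocyte markers matched the liver label, with 7 of 8 listed genes measured and all 7 above the floor on every array. Of the 11 Kupffer cell and macrophage markers, 10 exceeded the floor on every array, whereas 2 of 8 neutrophil, 1 of 4 B cell and 1 of 7 T and NK cell markers did. Members of the same list differed: S100a8, Ms4a1 and Cd3d lay below the floor on every array, and S100a9, Elane, Cd79b and Cd3e above it. In whole tissue, fewer cells of a type and less RNA per cell cannot be told apart.

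Of the 4 pantothenate kinase genes, 3 carry a microRNA gene within their span, which places a microRNA family among the genes of this pathway. By RefSeq coordinates (GRCm38.p6), the hairpin of Mir107 lies inside Pank1, that of Mir103-2 inside Pank2 and that of Mir103-1 inside Pank3. Their mature sequences are shown because they link these genes to a microRNA family that has been studied for its role in insulin sensitivity. Capitals mark the seed, bases 2 to 8 from the 5′ end.
mmu-miR-107-3p: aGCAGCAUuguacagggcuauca
mmu-miR-103-3p: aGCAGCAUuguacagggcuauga
mmu-miR-107-5p: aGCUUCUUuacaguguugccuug
mmu-miR-103-2-5p: aGCUUCUUuacagugcugccuug
mmu-miR-103-1-5p: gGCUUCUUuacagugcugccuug

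The 3p arms of both Mir103 hairpins are identical and differ from the 3p arm of Mir107 by a single substitution, G22C, counted from the 5′ end of miR-103-3p. Both 3p sequences share the seed GCAGCAU, and all 3 sequences of the 5p arm share GCUUCUU. The 3p sequence of Mir107 lies at chr19:34820700-34820722 on the minus strand. Those of Mir103-2 and Mir103-1 lie on the plus strand at chr2:131288103-131288125 and chr11:35782447-35782469.

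All 9 coenzyme A and vanin genes exceeded the floor on all 5 arrays. Among the kinases, Pank1 measured 12.16, 12.26, 12.14, 12.24 and 12.03 in mice 1 to 5, a mean of 12.17 ± 0.09 (SD, n = 5). Pank1 was at least 6.17 log2 units above the floor of its array in each mouse, and its highest and lowest livers differed 1.17-fold. Pank2, mutated in a human brain iron disorder, measured 9.79, 9.84, 9.72, 9.78 and 9.66 (mean 9.76 ± 0.07). Both genes were highest in mouse 2 and lowest in mouse 5.

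Pank3, which encodes a further active kinase, had 8.42, 8.51, 8.54, 8.43 and 8.18 in mice 1 to 5 (mean 8.42 ± 0.14, n = 5), a 1.29-fold span. Mouse 5 lay 0.24 below the next lowest liver, and the other 4 livers lay within 0.13 of the mean. Pank4, which encodes a protein without pantothenate kinase activity, had 7.83, 7.75, 7.91, 7.68 and 7.70 (mean 7.77 ± 0.09). It was the 1 gene of the 9 that was lowest in mouse 4, the lowest array for 35.6% of all tested probe sets, by a margin of 0.02 below mouse 5.

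**Figure D1:**
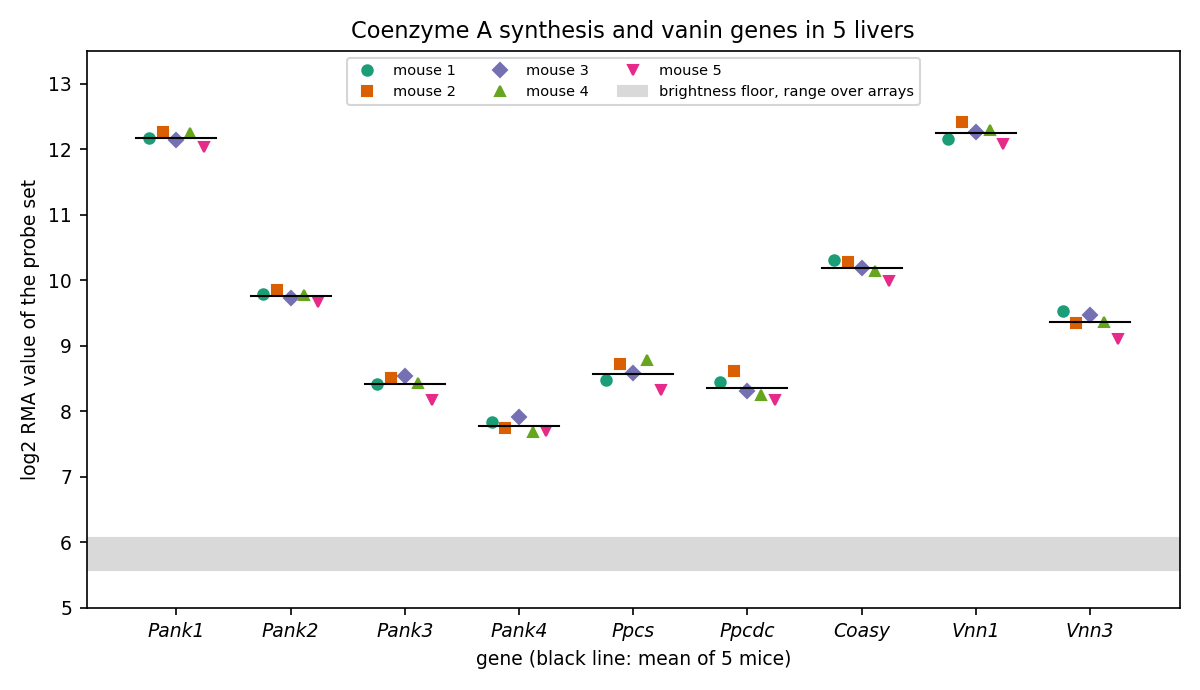
Log2 RMA value (vertical axis) of the probe set of each gene (horizontal axis) in each of the 5 livers (points) with the mean over 5 mice (black lines), and the range of the brightness floor over the arrays (grey band). All points lie above the floor, and mouse 5 is the lowest point for 8 of the 9 genes. Heights of different genes depend on their probes and are not to be set against each other.

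The genes of the later steps had SDs of 0.13 to 0.18, against 0.07 to 0.14 for the Pank genes. These SDs were not adjusted for the level of each gene. Ppcs encodes the ligase that attaches cysteine to phosphopantothenate. It had the largest SD of the 9 in the deposited values, but Ppcdc exceeded it after centring arrays on their medians (0.21 against 0.18), without mouse 4 (0.19 against 0.16) and without mouse 5 (0.16 against 0.14). Its values were 8.47, 8.71, 8.58, 8.78 and 8.33 in mice 1 to 5, with a mean of 8.57 ± 0.18 (SD, n = 5) and a 1.37-fold span. Ppcs was the 1 gene of the 9 that was highest in mouse 4. The decarboxylase gene Ppcdc had 8.45, 8.61, 8.31, 8.24 and 8.17 (mean 8.36 ± 0.18), with mouse 2 highest and mice 4 and 5 lowest. Coasy, which encodes the bifunctional synthase of the last steps, had 10.31, 10.28, 10.19, 10.14 and 9.99 (mean 10.18 ± 0.13). Coasy was thus highest in mouse 1, and mouse 5 lay 0.15 below the next lowest liver.

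The vanin genes differed in which mouse was highest. Vnn1, which encodes the membrane-anchored pantetheinase of hepatocytes, had 12.16, 12.42, 12.26, 12.29 and 12.08 in mice 1 to 5 (mean 12.24 ± 0.13, n = 5), highest in mouse 2. Vnn3, its neighbour on chromosome 10 with no protein-coding gene between them in RefSeq, had 9.54, 9.35, 9.46, 9.37 and 9.11 (mean 9.36 ± 0.16), highest in mouse 1. Both were lowest in mouse 5. After centring each gene on its own mean, Vnn1 minus Vnn3 ran from -0.25 in mouse 1 to 0.19 in mouse 2. Mouse 1 stood high in several marker lists of other cells, where 23.5% of all tested probe sets were highest. It was highest for 10 of 11 Kupffer cell and macrophage markers (mean level per liver 8.58 to 9.16), 6 of 7 stellate cell, 3 of 3 tested skeletal muscle and 2 of 2 erythroid markers. The part of these cells in the Vnn3 values was not tested.

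In 8 of the 9 genes the lowest liver was mouse 5, against 21.4% of the 14589 tested probe sets, those with a mean above the mean-level floor of 5.76. None of the 9 was lowest in mouse 1, 2 or 3, the lowest arrays for 12.1%, 11.9% and 18.9% of all tested probe sets. The deviation of mouse 5 from the mean of a gene ranged from -0.26 (Vnn3) to -0.07 (Pank4), with a median of -0.19 over the 9 genes and of -0.01 over all tested probe sets. Mouse 2 had the highest mean deviation, 0.10, and was the highest liver for 4 of the 9 genes, against 25.2% of all tested probe sets. Mouse 1 was highest for 2 (23.5% of all), mouse 3 for 2 (22.8% of all), mouse 4 for 1 (9.08% of all) and mouse 5 for 0 (19.4% of all). The shortfall of mouse 5 differed between single genes. Of all tested probe sets, 3.50% lay further below their mean in mouse 5 than Vnn3 did, 3.89% further than Ppcs and 4.30% further than Pank3. That share was 7.22% for Coasy, 7.72% for Ppcdc, 10.5% for Vnn1, 13.9% for Pank1, 20.5% for Pank2 and 27.7% for Pank4. Mouse 5 was lowest for 8 of the 9 genes also after quantile normalization and after centring each array on its median. The genes and the pattern come from the same 5 arrays, so the count is a description of these livers.

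**Figure D2:**
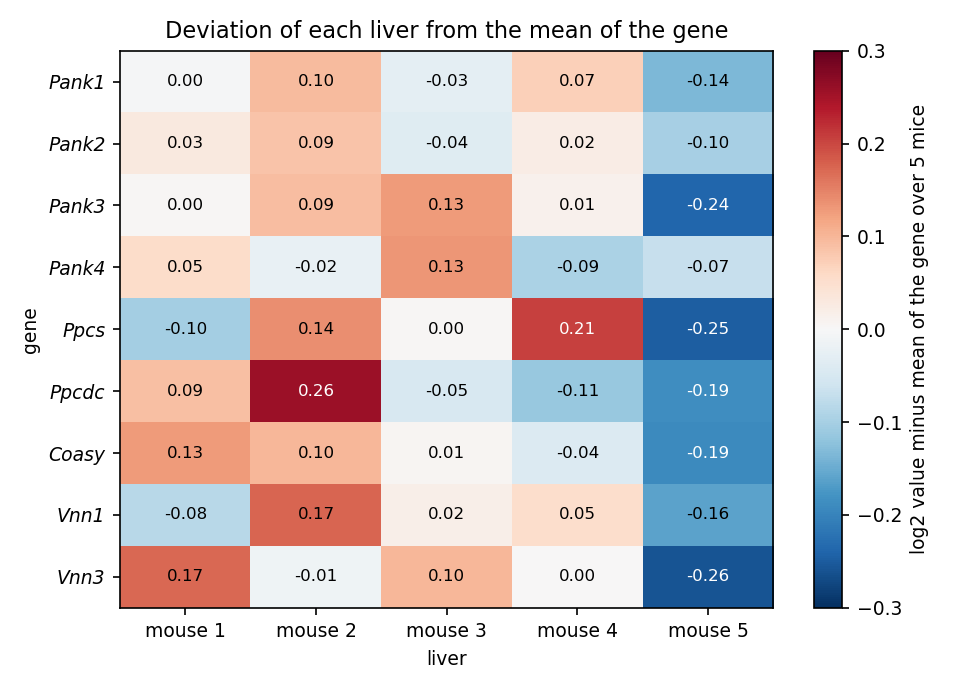
Log2 value minus the mean of the gene over 5 mice, in colour and figures, for each gene (rows) in each liver (columns). The column of mouse 5 is negative for all 9 genes, from -0.26 for Vnn3 to -0.07 for Pank4, while the highest liver varies by gene.

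No excess of spread between livers was detected for any of the 9 genes. An intercept-only model in limma compared the variance of each probe set with the variance expected at its mean level, by an upper-tail F test adjusted by Benjamini-Hochberg over all 14589 probe sets. In that test 0 of 9 genes passed 0.05, where 0.356% of all tested probe sets did, and 0 of 9 had an unadjusted p under 0.05, where 6.34% of all did. The adjusted p lay between 0.989 (Vnn1) and 0.992, and the unadjusted p between 0.148 (Vnn1) and 0.782 (Pank2). The median SD of the 9 genes was 0.13, and that of all tested probe sets was 0.12. These medians take no account of level. The median ratio of the variance to that expected at the level was 1.51 over the 9 genes and 0.93 over all tested probe sets. This difference depended on mouse 5. In the fit without mouse 5 the ratio fell below 1 for Coasy (0.67), Pank1 (0.66), Pank3 (0.25) and Vnn3 (0.66). It stayed above 1 for Ppcs (1.36), Ppcdc (1.82) and Vnn1 (2.19), and below 1 for Pank2 (0.24) and Pank4 (0.58).

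Set against probe sets within 0.5 log2 units of the same level, Ppcs had a larger SD than 82.6%, Vnn1 than 82.3%, Vnn3 than 81.0% and Ppcdc than 80.9%. Pank2 and Pank4 were among the steadier ones, with SDs larger than those of 22.9% and 28.4% of their neighbours in level. In the fit with all 5 mice, the SD was above the expected SD for 7 of the 9 genes, as it was for 46.9% of all tested probe sets. Vnn1 had the largest excess of the 9 in this fit, with an SD 1.58 times that expected, although Ppcs led without the trend on level and Vnn3 led without mouse 2 or mouse 4. By comparison, the smallest excess called among all probe sets was 6.15 times that expected. With 5 arrays the test thus reaches large spreads only, and the missing calls do not show that the mice were alike in these genes.

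**Figure D3:**
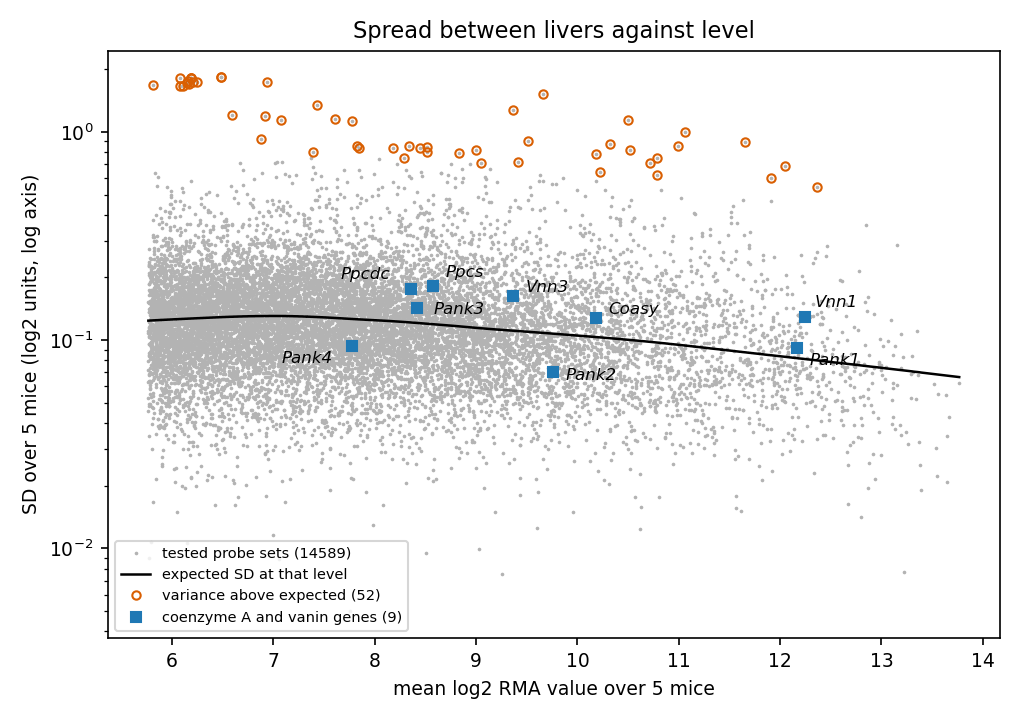
SD over 5 mice (vertical log axis, log2 units) against mean log2 value (horizontal axis) for the 14589 tested probe sets (grey), the SD expected at each level (black line), the 52 probe sets with a variance above expectation (orange circles) and the 9 genes (blue squares). The 9 genes lie close to the line, between 0.07 and 0.18, and well below the called probe sets.

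Much of the spread of several genes came from mouse 5. Without it, the SD of Pank3 was 0.06 instead of 0.14, that of Vnn3 0.09 instead of 0.16, that of Coasy 0.08 instead of 0.13 and that of Pank1 0.06 instead of 0.09, each a change of over 1.5 times. For Ppcdc and Vnn1 the mouse whose removal lowered the SD most was mouse 2, giving 0.12 instead of 0.18 and 0.10 instead of 0.13. Leaving out the liver furthest from the mean of a gene lowers its SD by construction, so these changes only describe the values. The median SD over the 9 genes was 0.09 without mouse 5, and that over all probe sets tested without mouse 5 was 0.11. Neither the array median of mouse 5 (6.26) nor its floor (5.72) was at an end of the range over the arrays, but its brightest probe set (14.00) was the lowest of the 5 maxima.

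The patterns over the 5 livers were compared as the root mean square (RMS) difference of the centred log2 values, for all 36 pairs of the 9 genes. Pank1 and Pank2 were the most alike, with an RMS difference of 0.03, followed by Pank1 and Vnn1 with 0.06. The median pair differed by 0.11. Pank4 and Ppcs were the least alike at 0.19, with the largest gap in mouse 4, and Ppcs and Ppcdc, which act one after the other, differed by 0.18. A gene with a small SD has small RMS differences by construction, so these values describe the livers and say nothing of shared control.

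**Figure D4:**
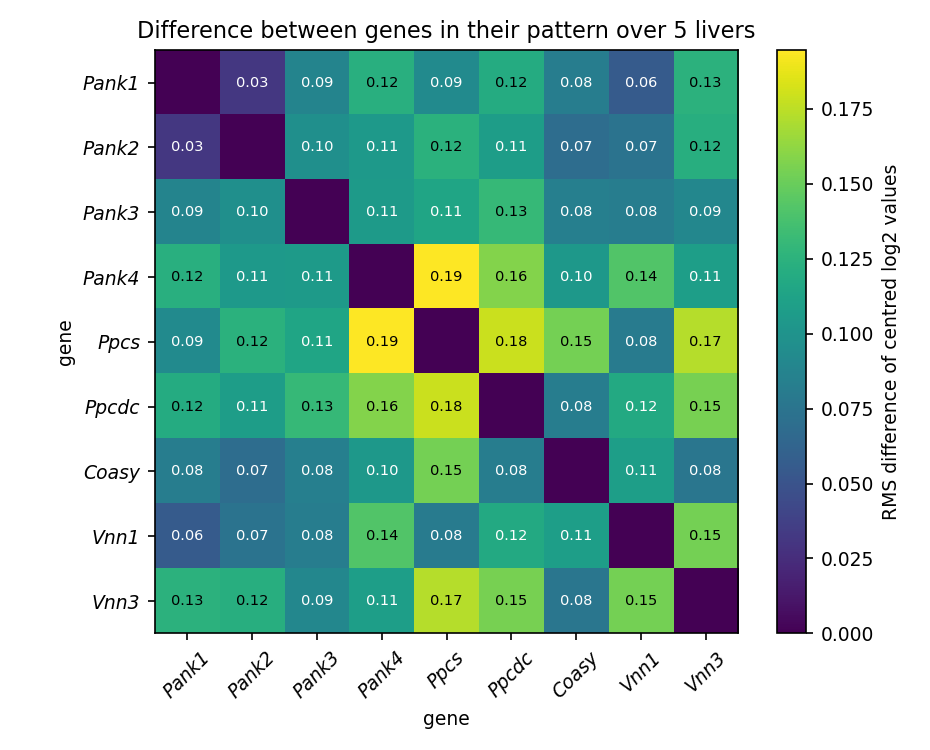
RMS difference between each pair of genes (rows and columns) in their centred log2 values over 5 livers, in colour and figures. The smallest value is 0.03 for Pank1 and Pank2, and the largest is 0.19 for Pank4 and Ppcs.

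Outside these 9 genes, the patterns most like those of the members with the largest SDs were sought among 12623 genes. For Ppcs they were Hibch, of valine breakdown, with an RMS difference of 0.02, Rab11fip2 with 0.04 and Map3k7cl with 0.04, over 5 mice and against a median of 0.20 for all genes searched. Hibch measured 9.30, 9.50, 9.41, 9.56 and 9.13 in mice 1 to 5, the same order of livers as Ppcs. For Ppcdc they were Sde2 with 0.01, Eral1 with 0.02 and Pigf with 0.02, against a median of 0.17. Among so many genes, close matches over 5 values also arise without any relation.

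The hosted microRNA genes had probe sets of their own. Mir107 measured 7.10, 6.47, 6.24, 6.28 and 6.36 in mice 1 to 5 (mean 6.49 ± 0.35, n = 5), above the floor on all 5 arrays. The margin was small in mouse 4, 6.28 against a floor of 6.07, and in mouse 3, 6.24 against 5.79. Mouse 1 was highest and mouse 3 lowest, unlike its host Pank1, which was highest in mouse 2 and lowest in mouse 5. The cell marker lists that were high in mouse 1 are given above with Vnn3, and their part in the Mir107 value was not tested. The limma adjusted p of Mir107 for excess variance was 0.482, with an unadjusted p of 0.0154. Mir103-1 (mean 4.28) and Mir103-2 (mean 4.69) lay below the floor on all arrays. These probe sets carry the names of the hairpin genes, and no value here is a level of the mature sequences shown above.

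Among genes of coenzyme A uptake, transport and breakdown, the breakdown gene Nudt7 spread the most between livers. In this list 9 of 10 genes were measured, all 9 above the floor on every array, and 0 passed the variance test in limma (0.356% of all tested probe sets), with 3 at an unadjusted p under 0.05 (6.34% of all). Their SDs ran from 0.10 to 0.41, with a median of 0.11. Nudt7, which encodes a peroxisomal hydrolase that degrades coenzyme A, had 11.67, 11.62, 11.99, 11.41 and 10.88 in mice 1 to 5 (mean 11.51 ± 0.41, n = 5, limma adjusted p = 0.113). It was lowest in mouse 5, as were 8 of the 9 coenzyme A and vanin genes, and spanned 2.17-fold. Dcakd, named for a dephospho-coenzyme A kinase domain, had an SD of 0.24, with 9.51 in mouse 4 and 10.01 in mouse 5. In this list 3 of 9 genes were lowest in mouse 5, also under both other scalings, where 21.4% of all tested probe sets were (22.4% after quantile normalization and 17.7% after centring). The mean deviation of the list was -0.11 in mouse 5, with a median of -0.06, and the mean in mouse 4 was -0.09. That mean in mouse 5 rested largely on Nudt7, which was 10.88 there against its own mean of 11.51.

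Cysteamine, released by vanins, leads into taurine metabolism, and cysteine is a substrate of Ppcs. Of 10 listed genes of cysteamine, cysteine and taurine, 9 were tested and 0 passed the variance test (0.356% of all), with 3 at an unadjusted p under 0.05 (6.34% of all). Their SDs ran from 0.06 to 0.47, with a median of 0.13. Mouse 5 was the lowest liver for 3 of the 9 (21.4% of all tested probe sets) and the highest for 3 (19.4% of all). The mean deviation of the list in mouse 5 was -0.004, with a median of 0.06. Gss (glutathione synthetase) had 9.15, 9.46, 8.81, 9.41 and 10.09 in mice 1 to 5 (SD 0.47, limma adjusted p = 0.150). It was highest in mouse 5. Cdo1, which encodes the dioxygenase that oxidises cysteine, had 11.45, 11.08, 11.60, 11.07 and 10.54 (SD 0.41, limma adjusted p = 0.138) and was lowest in that mouse. Gss and Cdo1 thus pulled the mean of the list in mouse 5 in opposite directions. Ado, the gene of the cysteamine dioxygenase, had a mean of 7.51 ± 0.13.

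Acyl-CoA synthetases join fatty acids and acetate to coenzyme A. Of 17 listed genes, 15 were measured and 12 tested. Mouse 5 was the lowest liver for 8 of these 12 (21.4% of all tested probe sets), for 9 after quantile normalization (22.4% of all) and for 8 after centring arrays on their medians (17.7% of all), with a mean deviation of -0.15. None passed the variance test (0 of 12 in limma against 0.356% of all), 5 had an unadjusted p under 0.05 (6.34% of all), and SDs ran from 0.05 to 0.60 with a median of 0.19. The widest were Acss1, the mitochondrial acetate enzyme gene (SD 0.60, limma adjusted p = 0.0852), which was 9.23 in mouse 5 and lowest, 8.01, in mouse 3, and Acss2, its cytosolic counterpart (SD 0.37, limma adjusted p = 0.170), which was lowest, 10.99, in mouse 5.

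PPARA target genes were taken for reference. Of 15 listed, 13 were tested, and 1 was lowest (21.4% of all tested probe sets) and 4 were highest (19.4% of all) in mouse 5. After quantile normalization 3 were lowest there (22.4% of all), and after centring 2 (17.7% of all). Their median deviation in mouse 5 was 0.04, and their mean, 0.08, rested on Pdk4, which deviated by 0.96. Without Pdk4 the mean of the other 12 genes was 0.01, and -0.01 after quantile normalization. The 9 coenzyme A and vanin genes, of which Pank1 and Vnn1 are PPARA targets too, had a mean of -0.18, and the difference was not tested. SDs ran from 0.04 to 0.86 with a median of 0.11. Pdk4, an inhibitory kinase of pyruvate dehydrogenase, was the 1 gene of this list to pass the variance test (1 of 13 against 0.356% of all, SD 0.86, limma adjusted p = 0.0102). This call was lost in the fit without mouse 4 and in that of all probe sets, with or without 1 symbol, where 0 probe sets passed. Pdk4 measured 10.95, 11.62, 9.74, 10.69 and 11.95 in mice 1 to 5 and was highest in mouse 5. Ucp3, a mitochondrial uncoupling protein gene, had the next largest SD, 0.44 (limma adjusted p = 0.282). Hepatocyte markers had a mean deviation of -0.01 in mouse 5, with 2 of 7 lowest there, and Kupffer cell and macrophage markers of 0.10, with 0 of 11 lowest. Erythroid markers deviated by -0.30 (2 tested, 1 lowest) and skeletal muscle markers by -0.17 (3 tested, 1 lowest). The other cell lists lay between -0.05 (B cell) and 0.10 (cholangiocyte). The part of cell mixture in the values of mouse 5 was not tested.

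**Figure D5:**
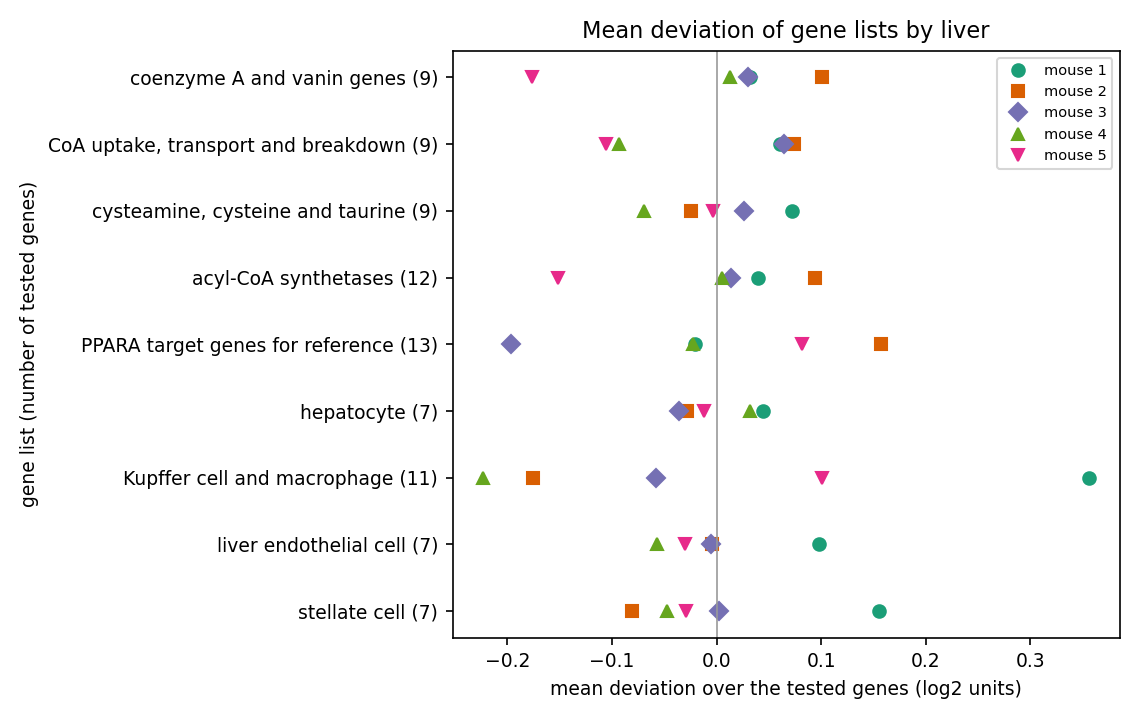
Mean deviation (horizontal axis, log2 units) of the tested genes of each list (vertical axis, number of genes in brackets) in each of 5 livers (points). The coenzyme A and vanin genes and the acyl-CoA synthetases are lowest in mouse 5, at -0.18 and -0.15. Genes of coenzyme A uptake, transport and breakdown are at -0.11 in mouse 5, with a median of -0.06, and at -0.09 in mouse 4. Their mean in mouse 5 rests largely on Nudt7. In mouse 5 the genes of cysteamine, cysteine and taurine are at -0.004 (median 0.06) and Kupffer cell markers at 0.10. The PPARA reference genes are at 0.08 there, a mean that is 0.01 without Pdk4.

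PPARs bind DNA with a retinoid X receptor at a direct repeat of AGGTCA with 1 base between the copies, so the start regions of these genes were searched for AGGTCA, any base, AGGTCA on both strands. RefSeq windows (GRCm38.p6) of 300 bases, from 250 before to 50 after a start, were at hand for 7 of the 9 genes, 10 windows in all, with none for Vnn1 and Coasy. Of these 10 windows, 1 held a match with at most 2 mismatches in the 12 defined bases, and 3 held one with at most 3. Of all 32851 windows, 3.86% and 24.6% did. The best matches are shown in capitals on the strand of the gene, beside Fabp1, a PPARA target whose window holds the repeat with 1 mismatch.
Ppcdc: gcgtgttgAGGTCATAGGACGacctgcag
Vnn3: agatgagtTGGCCTCTGAGCAatgtcaac
Pank2: tgggaatgAAGTCATAGCACAaaggaaga
Fabp1: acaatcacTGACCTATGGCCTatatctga

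The Ppcdc match has 2 mismatches, begins 28 bases into the transcript and lies within chr9:57439689-57439717 (minus strand). The match of Vnn3 (3 mismatches, read on the opposite strand) lies within chr10:23851362-23851390, with its first base at position -92 from the start, and that of Pank2 (3 mismatches, at 1 of its 3 annotated starts) within chr2:131261992-131262020, both genes being on the plus strand. The sequence shown for Fabp1 is chr6:71199804-71199832, on the plus strand, with its match on the opposite strand. Both Pank1 windows had 4 mismatches at best, as did 79.8% of all windows or better. A match is a run of letters, not a measured binding site, and a window without one says nothing of sites elsewhere.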

How the data were processed

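Expression was measured in 5 livers of 1 group, 1 array per mouse. The deposited values are log2 signals per probe set, made with Expression Console 1.2 and RMA per the submitters' processing notes, whose settings are unstated. The genome build of the probe sets was not given in the sources used here. Of 35556 probe sets, 21789 had exactly 1 gene symbol; the gene IDs of all 9 genes matched RefSeq. The spread between mice was tested with limma 3.58.1 in R 4.3.3: an intercept-only fit with 4 residual degrees of freedom, an expected variance from fitFDistRobustly with the mean as covariate, an upper-tail F test and Benjamini-Hochberg adjustment over 14589 probe sets with a mean above 5.76. The test was also run on simulated data, which were made from the means and expected variances of this fit. Arrays carry no counts, so their number limits the precision; the spread between mice includes technical spread. Whether paralogous kinase sequences or genes that overlap Pank2 (Rnf24), Pank4 and Ppcdc share probes was not examined. Named genes are the 9 members, the 2 genes of largest SD in each list and any that passed the test, and the 3 genes closest in pattern to each of the 2 members of largest SD; Ado, the named marker genes of immune cells, the hosted microRNA genes and Fabp1 were added after values were seen. Members and lists were chosen with earlier results of these data known. Python 3.11.15, numpy 2.4.6, pandas 2.3.3 and matplotlib 3.10.9 were used. Other normalizations, filters, variance fits and sets of arrays were tried.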

Additional observations from a re-analysis of the deposited data

Results flagged for a closer look

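Mir107, the microRNA gene inside Pank1, was set apart by mouse 1. The gap from 7.10 in mouse 1 to 6.47 in mouse 2 took up 0.725 of the whole range of the 5 values, above the 95% critical value of 0.71 for 5 values in Dixon's test. It was the 1 set of values so marked among 39 examined, and chance marks about 1 in 20. Mouse 1 was highest also after quantile normalization (7.09) and after centring arrays on their medians (7.13). Mouse 1 also had high values of several cell marker lists, such as skeletal muscle (mean deviation 0.54) and erythroid (0.45), whose part was not tested. Among the 9 coenzyme A and vanin genes the largest such ratio was 0.662, for Pank3, where mouse 5 stood lowest.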

How the results depend on the processing

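The count of coenzyme A and vanin genes with excess variance was 0 of 9 with limma under all 12 alternative fits, and 0 of these 108 values had an unadjusted p under 0.05. The limma adjusted p lay between 0.979 and 0.998 over them. Each gene has 1 probe set, so other ways to summarise probe sets gave the same values. The median SD was 0.15 after quantile normalization and after centring arrays, and 0.09 to 0.15 without a single mouse. Mouse 5 was lowest for 8 or 9 genes (9 without mouse 4), with a median deviation of -0.12 (without mouse 2) to -0.20; these alternatives, and the mean of the PPARA list without Pdk4, were added after seeing the data. The count over all probe sets, 52, was less stable: 142 with arrays centred on their medians, 29 with probe sets above the floor on all arrays, 24 without the trend on level, 18 without the robust step and 0 (1385 at an unadjusted p under 0.05) with all probe sets, with or without 1 symbol. Leaving out a mouse in turn gave 0 (without mouse 4, 864 at an unadjusted p under 0.05) to 69 calls, with 34 without mouse 2 and 30 without mouse 3. The cause of these shifts was not tested. No paired analysis was possible because all mice belong to 1 group.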
